A study of Mus musculus with 5 samples.

Results

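The genes described here are 10 members of the Wnt pathway measured in the lungs of mouse embryos: the ligands Wnt2 and Wnt5a, the secreted inhibitors Wif1, Sfrp1 and Notum, the membrane-bound inhibitor Apcdd1, the intracellular inhibitors Nkd1, Nkd2 and Axin2, and the transcription factor Lef1. They were picked by symbol from the 32285 genes of the count matrices, and each symbol matched 1 row. The study sequenced single cells from whole lungs of E18.5 embryos by 10x 3′ capture. The lungs of 2 embryos were Zswim8+/- (Het1 and Het2) and those of 3 were Zswim8-/- (labelled KO1, KO2 and KO3). Each embryo gave 1 library, and there was no wild-type group. ZSWIM8 is a substrate receptor of an E3 ubiquitin ligase that is known for directing the decay of certain microRNAs. By their labels all 5 lungs carried at least 1 mutant allele, and no other allele, strain or treatment is named in the labels. The members were chosen with results of this Het against KO contrast known, so the fold changes and adjusted p-values below describe the fits and are no independent support for a choice of genes.

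Wnt ligands bind Frizzled receptors with LRP co-receptors and stabilise β-catenin, which then acts with TCF and LEF factors on target genes. Several of those targets are themselves inhibitors of the pathway, such as Axin2, Nkd1, Notum and Apcdd1, so their transcripts are widely used as readouts of signalling. In the developing lung, mesenchymal Wnt2 supports the specification of the lung endoderm, and Wnt5a shapes the distal airways and alveoli.

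The libraries held 93708304, 83659532, 56608582, 71749925 and 85380967 UMIs in the order Het1, Het2, KO1, KO2 and KO3, which is the order used for every list of 5 values below. After filtering, 3051 to 4634 cells per library remained, and pairs of libraries shared 17 to 44 barcodes before filtering and 0 to 7 after it. The Zswim8 transcript was not lower in the libraries labelled KO: it lay at 36.3, 38.1, 38.3, 39.3 and 40.9 CPM (UMIs scaled to a common total of 1e6 in each sum) over all kept cells. A 3′ count does not show whether that transcript is intact, so it does not check the labels. Xist, the RNA expressed from the inactive X chromosome of females, stood at 1000.4 and 1051 CPM in KO1 and KO2 and under 0.14 CPM in the other 3 libraries. Sex therefore differs between the groups in part, and KO3 is the only library labelled KO from a male, as both Het libraries were. In a model with sex as a covariate, the Het against KO difference thus compares KO3 alone with Het1 and Het2. KO1 and KO2 then inform only the sex term and the spread. This holds for every value with sex as a covariate below.

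All 10 members are protein-coding genes in GENCODE M21 (GRCm38). Wif1 lies at chr10:121033960-121100650 (+), Nkd1 at chr8:88521354-88594884 (+), Nkd2 at chr13:73818534-73847631 (-), Axin2 at chr11:108920349-108950783 (+) and Lef1 at chr3:131110471-131224356 (+). Wnt2 lies at chr6:17988940-18030585 (-), Wnt5a at chr14:28504750-28527448 (+), Sfrp1 at chr8:23411502-23449632 (+) and Notum at chr11:120653788-120661175 (-). RefSeq promoter windows (GRCm38.p6, 250 bases before to 50 after a transcript's start) were matched by symbol for 6 of the 10 members. The windows of Wif1 and Nkd1 are shown because these genes differ most between the groups, and a window of Lef1 because it is the only member window with a full TCF/LEF-type match. Capitals mark CTTTG or its reverse complement CAAAG, the core that TCF and LEF factors are known to bind.
Wif1, chr10:121033754-121034053, + strand: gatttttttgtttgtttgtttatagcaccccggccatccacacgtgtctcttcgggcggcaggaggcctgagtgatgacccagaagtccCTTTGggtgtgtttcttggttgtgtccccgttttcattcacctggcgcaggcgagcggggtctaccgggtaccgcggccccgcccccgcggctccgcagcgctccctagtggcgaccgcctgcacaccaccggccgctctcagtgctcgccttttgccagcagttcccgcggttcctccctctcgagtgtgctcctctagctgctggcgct
Nkd1, chr8:88527383-88527682, + strand: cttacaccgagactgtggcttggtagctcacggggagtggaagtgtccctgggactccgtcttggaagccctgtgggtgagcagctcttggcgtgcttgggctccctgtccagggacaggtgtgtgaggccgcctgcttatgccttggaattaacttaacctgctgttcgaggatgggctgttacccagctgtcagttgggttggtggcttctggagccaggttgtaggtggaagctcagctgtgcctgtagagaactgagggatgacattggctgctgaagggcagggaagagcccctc
Lef1, chr3:131156044-131156343, + strand: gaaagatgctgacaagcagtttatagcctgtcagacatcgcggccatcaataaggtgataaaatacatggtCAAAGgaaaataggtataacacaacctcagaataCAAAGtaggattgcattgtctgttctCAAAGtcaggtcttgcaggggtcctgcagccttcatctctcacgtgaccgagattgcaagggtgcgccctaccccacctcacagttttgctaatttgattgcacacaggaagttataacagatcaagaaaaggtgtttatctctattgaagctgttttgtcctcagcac
The core was found 1 time in the Wif1 window, 3 times in this Lef1 window and 0 times in the Nkd1 window, on both strands together, and 53.9% of all 32851 promoter windows hold it at least once. The printed Nkd1 and Lef1 windows lie inside their genes, downstream of the GENCODE gene starts given above. They belong to other transcript starts, and no window at the GENCODE start of Nkd1 was matched. The Lef1 windows nearest its GENCODE start hold the core 2 times each. Of the 4 longer forms searched, the core CTTTG followed by AT, by TT, by AA or by TA, 1 was matched in the Lef1 window and none in the windows of Wif1, Nkd1, Nkd2, Axin2 and Wnt2 or in the other 3 Lef1 windows. On both strands, 16.9% of all windows hold at least 1 of the 4 longer forms. A match describes letters only. The windows of Nkd2, Axin2, Wnt2 and the other Lef1 starts are not printed.

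Levels were compared in 13 cell types and clusters with at least 20 cells in every library, named "-like" from marker genes that included no Wnt gene. Wif1 is a secreted protein that binds Wnt ligands. Of these types it was highest in myofibroblast-like cells, the contractile fibroblasts of the growing alveolar wall, at 157, 158, 59.8, 53.0 and 57.2 CPM. Its next type, ciliated-like cells, had 1.32 to 5.54 CPM. Lef1 and Notum, a secreted enzyme that inactivates Wnt ligands, had the same leading type: Lef1 lay at 59.6 to 115 CPM in myofibroblast-like cells against 0 to 6.39 CPM in alveolar fibroblast-like cells, and Notum at 54.7 to 141 CPM against 0 to 3.07 CPM in AT2-like cells, the next types in order. Wnt5a was highest in the same cells, at 317 to 548 CPM, followed by alveolar fibroblast-like cells at 61.7 to 104 CPM. Axin2, a scaffold of the β-catenin destruction complex, lay at 53.0 to 78.3 CPM in myofibroblast-like, 27.0 to 51.8 CPM in alveolar fibroblast-like and 24.8 to 33.4 CPM in mesothelial-like cells. Nkd2 was scarce, with at most 10.7 CPM in any library of any of these types. Pericyte-like cells, with 10 to 65 cells per library, were under the minimum for this order: Lef1 lay there at 23.6 to 46.9 CPM and Nkd2 at 7.99 to 58.7 CPM on 2 to 12 UMIs. Mesenchymal cluster 9, with 13 to 46 cells and described below for Wif1, was under it too: it gave 35.5% of all mesenchymal Nkd2 UMIs, at 56.2, 56.4, 75.7, 26.0 and 50.6 CPM on 8 to 33 UMIs. It also gave 14.1% of all mesenchymal Notum UMIs, with 19, 24, 2, 19 and 4 UMIs. Its Notum level was above that of AT2-like cells in each library, and in KO2 it was close to that of myofibroblast-like cells. Axin2 in cluster 9 lay at 81.9, 97.4, 104, 87.8 and 66.2 CPM, above the myofibroblast-like cells of the same library in each of the 5 libraries. Wif1 in cluster 9, with levels given below, was also above the myofibroblast-like cells in each of the 5 libraries.

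Wnt2 and Sfrp1 led in other mesenchymal cells. Wnt2 was highest in alveolar fibroblast-like cells, the lipid-rich fibroblasts beside the alveolar epithelium, at 79.9 to 143 CPM. Myofibroblast-like and adventitial fibroblast-like cells followed at 9.93 to 28.6 and 9.99 to 28.8 CPM, ranges that overlapped. Sfrp1, a secreted decoy related to Frizzled, reached 196 to 361 CPM in mesenchymal cluster 5, which was led by Ephx2, Rgs5 and Vav3 among others and stayed unnamed, and 139 to 179 CPM in adventitial fibroblast-like cells. Nkd1, which inhibits signalling through Dishevelled, spanned lineages: its levels in AT2-like (122 to 199 CPM) and myofibroblast-like cells (128 to 173 CPM) overlapped, and those in AT1-like cells (101 to 143 CPM) overlapped both. Apcdd1 was spread over endothelial cycling cells (15.6 to 32.6 CPM), myofibroblast-like cells (11.1 to 26.5 CPM), general capillary-like cells (7.61 to 22.5 CPM) and mesothelial-like cells (10.5 to 20.9 CPM), and these ranges overlapped as well.

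**Figure D1:**
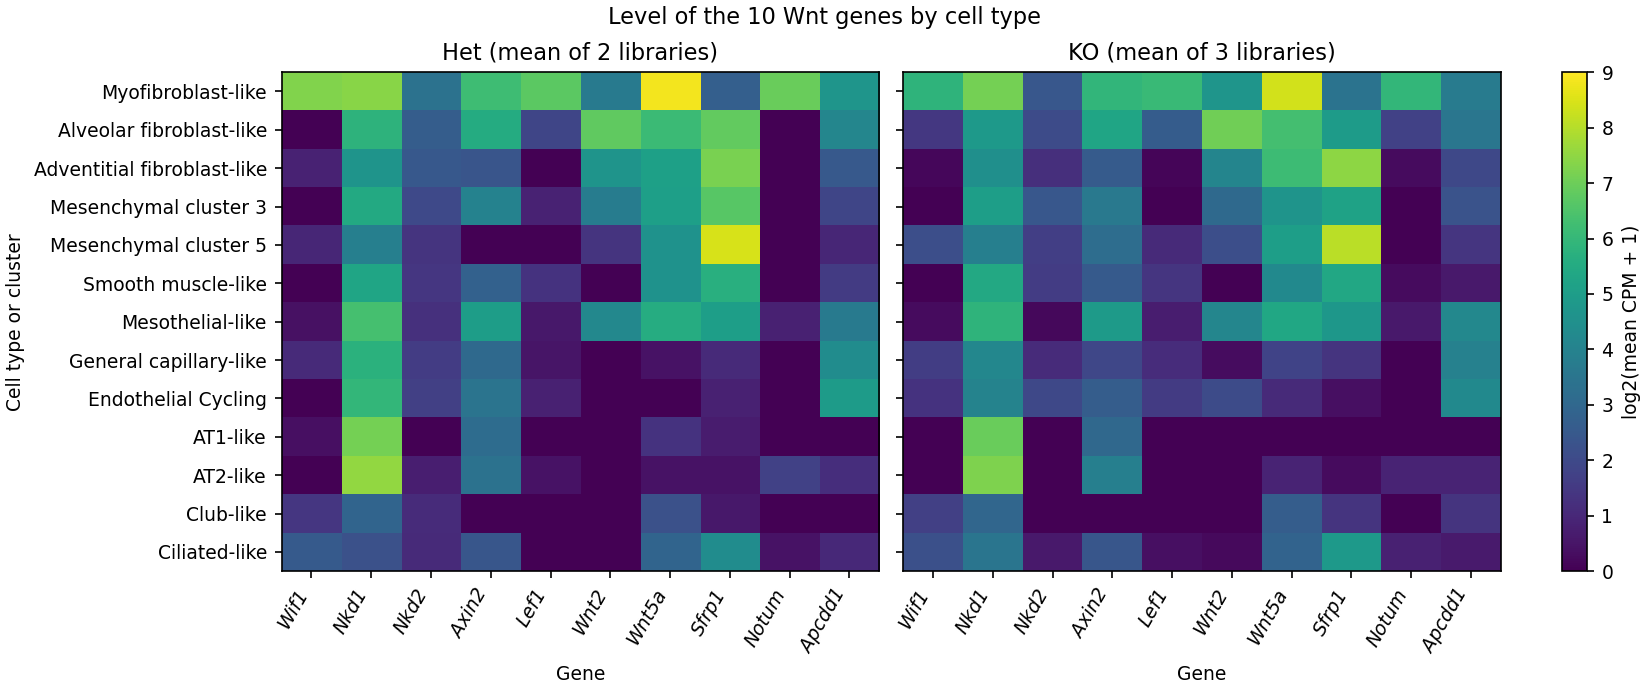
Colour gives log2(mean CPM + 1) of each gene (x axis) in each cell type or cluster (y axis), as the mean of the 2 Het libraries on the left and of the 3 libraries labelled KO on the right. Wif1, Notum and Lef1 are brightest in the myofibroblast-like row, while Nkd1 spans myofibroblast-like, AT1-like and AT2-like rows.

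Summed over each lineage and compared between Het and KO by edgeR's quasi-likelihood test, Wif1 fell in mesenchymal cells and Nkd1 and Apcdd1 fell in endothelial cells, with Benjamini-Hochberg adjusted p under 0.05 over all genes. In a sum over a lineage, fewer cells of a type and less RNA per cell cannot be told apart. In mesenchymal sums all 10 members were tested, 1 was lower past the threshold and none was higher. Of 13765 genes tested there, 0.0726% were past it. In endothelial sums 4 members passed the low-count filter and 2 of them were lower, where 5.85% of 11616 genes were past the threshold. In epithelial sums 7 members were tested and none passed, where 7.05% of 14124 genes did. The groups did not overlap for 7 of 10 members in mesenchymal sums (30% of all genes tested), 4 of 4 in endothelial sums (39.1%) and 1 of 7 in epithelial sums (42%). The median log2 fold change of the tested members was -0.37, -1.10 and -0.14 in the 3 lineages, against -0.002, 0.0019 and -0.0053 for all genes. Nothing is read from these counts, since the same contrast was known when the members were chosen.

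**Figure D2:**
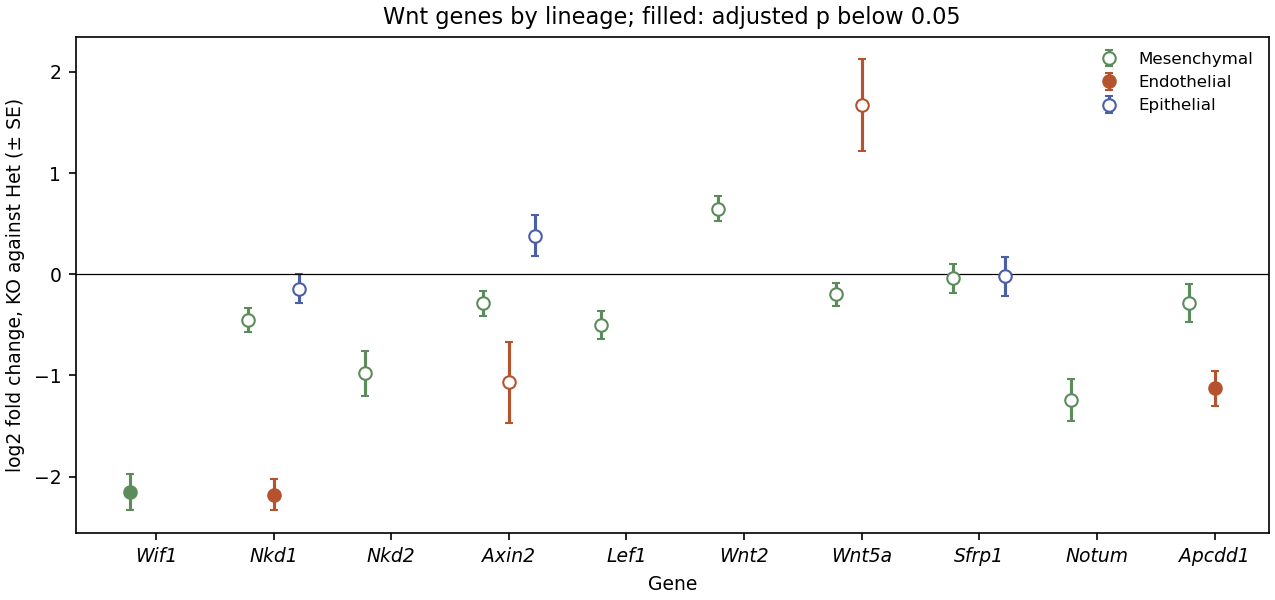
Points give the log2 fold change of KO against Het (y axis) for each gene (x axis) with at least 5 CPM in the higher group, with bars of 1 SE, in mesenchymal, endothelial and epithelial sums; filled points had an adjusted p under 0.05. Wif1 in mesenchymal cells (-2.15) and Nkd1 in endothelial cells (-2.18) lie lowest.

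Wif1 lay at 32.3, 39.8, 6.41, 10.2 and 7.52 CPM in the mesenchymal sums. Both Het libraries were above all 3 libraries labelled KO, including the male KO3. Wif1 averaged 36.0 ± 5.28 CPM over the Het libraries (SD, n = 2) and 8.05 ± 1.95 CPM over the others (SD, n = 3), a log2 fold change of -2.15 (SE 0.18, edgeR adjusted p = 0.0362), or 4.45-fold lower. When embryo sex entered the model, the value was -2.26 and the adjusted p 0.404, and with KO1 left out they were -2.03 and 0.124. The adjusted p was also above 0.05 without KO3 (0.0583).

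Of the other members without a call in the mesenchymal sums, Nkd1 had a log2 fold change of -0.45 (SE 0.12, edgeR adjusted p = 0.269), with 59.4, 67.2, 37.5, 48.4 and 50.5 CPM. Nkd2 had -0.98 (SE 0.22, adjusted p = 0.197), with 6.92, 7.99, 3.34, 4.62 and 3.29 CPM. Axin2 had -0.29 (SE 0.12, adjusted p = 0.411) and Lef1 -0.50 (SE 0.14, adjusted p = 0.272). The Het libraries were above the others for each of these 4 genes. Wnt5a (-0.20, SE 0.11), Sfrp1 (-0.04, SE 0.15) and Apcdd1 (-0.29, SE 0.19) had overlapping groups.

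Mesenchymal Wif1 transcripts came mainly from 2 populations. Myofibroblast-like cells gave 59.2%, 39.4%, 63.0%, 51.2% and 72.9% of the mesenchymal Wif1 UMIs, and mesenchymal cluster 9, led by Lgr5, Col7a1, Igfbp2 and Sostdc1 (Lgr5 and Sostdc1 are themselves on the Wnt list used below) and left unnamed, gave 37.8%, 55.9%, 21.9%, 42.9% and 26.0%. Their shares of the mesenchymal cells, given without a test, were 18.9%, 18.7%, 11%, 12% and 13.4% for myofibroblast-like cells, and 6.48%, 7.68%, 1.505%, 3.04% and 2.89% for cluster 9. Cluster 9, with 38, 46, 13, 18 and 25 cells, was under the minimum for a fit, and it is given here because its level was seen to be high: 211, 347, 152, 117 and 97.3 CPM. With cluster 9 left out of the mesenchymal sums, an alternative chosen after seeing the data, the log2 fold change of Wif1 was -1.80 (edgeR adjusted p = 0.0413).

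Within myofibroblast-like cells (71 to 116 per library), Wif1 fell from 158 ± 0.38 CPM (SD, n = 2) to 56.7 ± 3.46 (SD, n = 3). The log2 fold change was -1.47 (SE 0.17, edgeR adjusted p = 4.35e-05), and it was -1.49 (adjusted p = 0.00435) with sex as a covariate. These values rest on 141, 143, 46, 43 and 70 UMIs. A Wif1 UMI was found in 53.2%, 51.8%, 32.6%, 35.2% and 38.8% of the cells, and in 36.4%, 26.9%, 13.6%, 12.7% and 14% after each cell was thinned to 3000 UMIs. In immune cells, which should lack the gene, the share was at most 0.343% unthinned; median depths were 7201 to 10547 UMIs in myofibroblast-like and 12698 to 14327 in immune cells.

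**Figure D3:**
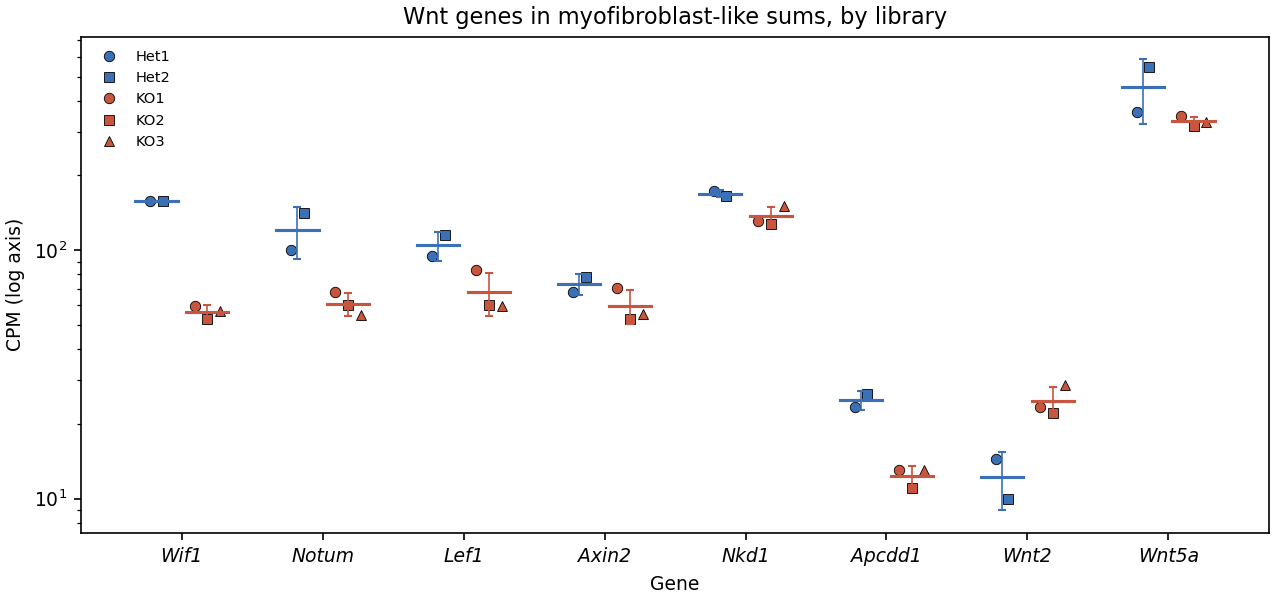
Each point is the CPM (y axis, log scale) of a gene (x axis) in the myofibroblast-like cells of 1 library, with the group mean as a line and bars of 1 SD. The 2 Het libraries lie above the 3 KO libraries for Wif1 and Notum, and below them for Wnt2, while the groups overlap for Axin2.

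Notum also fell in myofibroblast-like cells. It lay at 100.4, 141, 67.6, 60.4 and 54.7 CPM there, with both Het libraries above the others. The log2 fold change was -0.998 (SE 0.19, edgeR adjusted p = 0.00571), with an adjusted p of 0.0749 when sex was a covariate, 0.216 without Het2 and 0.0501 without KO3. In the whole mesenchymal sums Notum lay at 14.9, 17.5, 5.44, 8.87 and 6.11 CPM and did not pass the test (log2 fold change -1.25, SE 0.21, edgeR adjusted p = 0.121), while DESeq2 gave an adjusted p of 0.00344.

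Of 8 members tested in myofibroblast-like cells, 2 were lower past the threshold, against 1.61% of 8213 genes past it. The groups did not overlap for 7 of the 8, 6 lower and 1 higher in KO, against 28.3% of all genes tested. Lef1 was at 94.8, 115, 83.2, 60.4 and 59.6 CPM (log2 fold change -0.64, SE 0.19, edgeR adjusted p = 0.118). It passed only without KO1 (adjusted p = 0.0197). Apcdd1, whose product binds Wnt ligands and LRP5 at the cell surface, was at 23.4, 26.5, 13.0, 11.1 and 13.1 CPM on 9 to 24 UMIs (adjusted p = 0.177). Axin2 was at 68.0, 78.3, 70.2, 53.0 and 55.6 CPM, and its groups overlapped. Among the markers that named these cells, 6 of 10 were lower and 4 higher in KO, their summed level was 6226 and 6683 CPM in Het against 3804 to 4761 in KO, and none was at 0. Epithelial markers there summed to 61.3 and 23.2 CPM in Het against 91.1, 88.7 and 41.7 in KO. By group mean 6 of 6 were higher in KO, but their sums overlapped between groups. Immune markers summed to 62.5 and 65.1 CPM in Het against 26.0, 29.6 and 50.7 in KO, with 6 of 6 lower by group mean. The part of these lists in the results was not tested.

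In endothelial cells Nkd1 fell in the whole lineage and in both endothelial types that could be fitted, the general capillary-like and the cycling cells. The endothelial sums had 54.8, 62.8, 10.7, 12.6 and 14.6 CPM, so that the 3 KO libraries lay far below both Het libraries and close to each other. The log2 fold change was -2.18 (SE 0.15, edgeR adjusted p = 0.000117), 4.52-fold lower. With sex as a covariate it was -1.99 (adjusted p = 0.00555). The adjusted p stayed under 0.05 in each of the alternatives run for this value, with log2 fold changes from -2.31 to -1.67.

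The endothelial cells of the groups differ in make-up. Aerocyte-like cells, the gas-exchange capillary type, were 20.2%, 19.1%, 0.712%, 0.697% and 1.03% of endothelial cells. They carried 159 and 193 CPM of Nkd1 in Het1 and Het2, on 92 and 80 UMIs in 84 and 56 cells. The KO libraries held 2, 2 and 3 such cells with 0, 2 and 1 Nkd1 UMIs (0, 146 and 42.2 CPM), too few to compare the level per cell. Axin2 in the endothelial sums was at 7.16, 6.19, 2.90, 1.69 and 4.604 CPM on 7 to 29 UMIs, with no call (log2 fold change -1.07, SE 0.40, edgeR adjusted p = 0.162).

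With aerocyte-like cells left out, an alternative chosen after seeing the data, Nkd1 had a log2 fold change of -1.67 (edgeR adjusted p = 0.00335).

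In general capillary-like cells, Nkd1 lay at 51.7, 54.4, 17.0, 11.7 and 22.5 CPM, a log2 fold change of -1.63 (SE 0.23, edgeR adjusted p = 0.000195), where 1 of 2 tested members passed and 4.37% of 9155 genes did. Different clusters hold most of this class in the groups: cluster 4 holds 82 and 51 and cluster 6 holds 63 and 48 of its 200 and 138 cells in Het, and cluster 0 holds 66, 98 and 68 of 123, 149 and 139 in KO. Nkd1 in cluster 0 lay at 13.6, 43.6, 16.2, 11.9 and 23.5 CPM on 2 to 19 UMIs, with overlapping groups. In cluster 4 it lay at 59.3, 69.1, 17.6, 24.3 and 25.2 CPM, and in cluster 6 at 64.5, 51.7, 0, 0 and 48.6 CPM, where the KO libraries hold 4 to 14 cells of either cluster. In cluster 2, with 39, 27, 38, 39 and 46 cells, Nkd1 had 6, 6, 5, 4 and 4 UMIs, which is 26.4, 38.5, 22.6, 11.2 and 10.3 CPM. This was too few for the gene to enter a fit of that cluster alone. Endothelial cycling cells gave 54.9, 66.7, 15.2, 18.4 and 12.9 CPM (log2 fold change -1.88, SE 0.28, edgeR adjusted p = 0.00174), where 1 of 2 tested members passed and 2.02% of 7515 genes did. Endothelial markers moved with these results: all 8 were lower in the KO endothelial sums, at a summed 8155 and 8348 CPM in Het against 5841 to 6305 in KO. In general capillary-like cells, the 8 general capillary markers summed to 3004 and 3067 CPM in Het against 3461, 2626 and 2763 in KO, 4 higher and 4 lower. Venous markers there (150 and 200 CPM in Het, 161 to 217 in KO) and lymphatic markers (502 and 494 against 467 to 527) had overlapping sums. Mesenchymal markers summed to 152 and 154 CPM in Het against 159 to 215 in KO, with 6 of 8 higher. Aerocyte markers in general capillary-like cells summed to 459 and 464 CPM in Het against 231 to 314 in KO, with 7 of 8 lower and none at 0. Arterial markers in the same cells summed to 983 and 848 CPM in Het against 458 to 552 in KO, with 8 of 8 lower. Immune markers summed to 93.2 and 70.2 CPM in Het against 15.97, 66.1 and 43.6 in KO, with 6 of 6 lower by group mean. Epithelial markers summed to 49.0 and 31.6 CPM in Het against 96.8, 18.7 and 42.9 in KO. By group mean 6 of 6 were higher, but their sums overlapped between groups. The part of these marker lists in the Nkd1 result was not tested.

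A Nkd1 UMI was found in 34.6%, 42.3%, 11.03%, 14.98% and 18.9% of endothelial cells, and in 16.5%, 15.6%, 3.46%, 5.30% and 6.50% after thinning to 3000 UMIs. In immune cells the share was 1.66% to 4.44% unthinned. Red-cell barcodes, which hold few RNAs of their own besides haemoglobin, carried Nkd1 at 5.03, 4.29, 9.57, 2.06 and 2.85 CPM. The highest of these was in KO1.

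Apcdd1 fell in the endothelial sums, from 24.0 and 24.5 CPM in Het to 12.5, 9.66 and 10.8 CPM in KO (log2 fold change -1.13, SE 0.17, edgeR adjusted p = 0.00722). The call was lost with aerocyte-like cells left out (-0.79, adjusted p = 0.0689), with sex as a covariate (0.0764) and without Het1 (0.0739) or Het2 (0.0594). Aerocyte-like cells had 53.7 and 60.3 CPM of Apcdd1 in Het. In general capillary-like cells it was at 22.5, 17.6, 17.96, 7.61 and 18.3 CPM, and the groups overlapped. In endothelial cycling cells it was at 27.4, 32.6, 20.2, 15.6 and 18.6 CPM, where the groups did not overlap and the gene was not called (log2 fold change -0.71, SE 0.33, edgeR adjusted p = 0.32). Immune cells gave a further fall of Apcdd1, at 3.54, 4.50, 0.869, 1.19 and 1.75 CPM (log2 fold change -1.66, edgeR adjusted p = 0.00727), where 7.83% of 13798 genes were past the threshold.

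**Figure D4:**
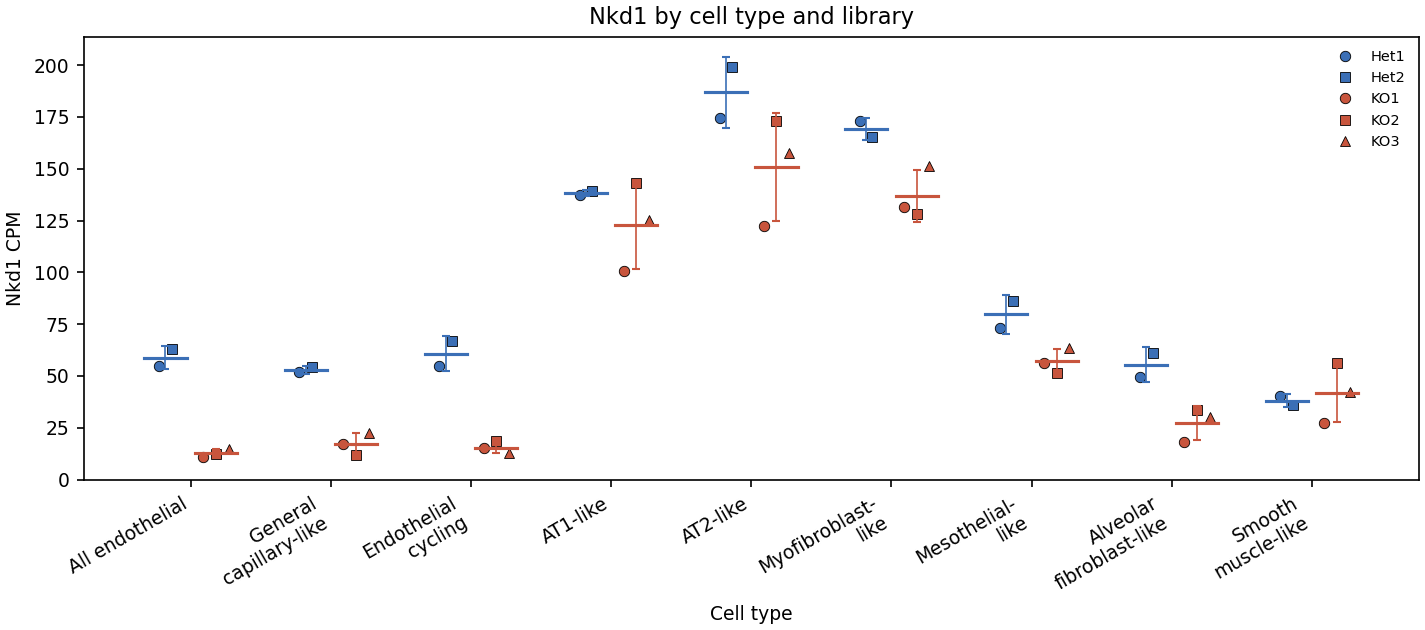
Each point is the Nkd1 level in CPM (y axis) in 1 library for a cell type (x axis), with the group mean as a line and bars of 1 SD. The endothelial groups are separated (10.7 to 14.6 CPM in KO against 54.8 and 62.8 in Het), while AT1-like and smooth muscle-like groups overlap.

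In the epithelium Nkd1 did not pass the test in the lineage or in a type. The epithelial sums lay at 80.7, 92.2, 72.5, 72.8 and 96.2 CPM (log2 fold change -0.14, SE 0.15, edgeR adjusted p = 0.602), and the groups overlapped. AT2-like cells, the surfactant-producing type, gave 175, 199, 122, 173 and 158 CPM (log2 fold change -0.35, SE 0.14, edgeR adjusted p = 0.219), with 0 of 2 members past a threshold that 2.33% of 9208 genes passed. AT1-like cells, the flat gas-exchange type, were not fitted, since KO1 held 29 of them, and lay at 137, 139, 101, 143 and 125 CPM. AT2-like cells were 28.8%, 24.9%, 15.1%, 12.8% and 21.99% of epithelial cells, with clusters 4 and 16 holding most of them in Het and cluster 7 in KO. Unnamed epithelial cluster 8 was 1.72%, 3.33%, 14.1%, 10.5% and 16.6% of epithelial cells, given without a test, and carried Nkd1 at 134, 129, 141, 127 and 134 CPM. Axin2 in the epithelial sums was at 7.63, 6.39, 9.86, 7.90 and 10.6 CPM (adjusted p = 0.276). Ciliated-like cells had 0 of 5 tested members past the threshold, against 1.08% of 12270 genes. Sfrp1 there was at 21.6, 17.8, 21.8, 23.0 and 40.4 CPM (adjusted p = 0.528), and it passed only with sex as a covariate (log2 fold change 1.001, adjusted p = 0.0445). Nkd1 there was at 2.40, 5.07, 9.44, 4.87 and 16.7 CPM and also passed with that covariate (2.18, adjusted p = 0.0499).

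Among fibroblasts, Nkd1 was at 49.4, 61.3, 18.2, 33.5 and 30.3 CPM in alveolar fibroblast-like cells (edgeR adjusted p = 0.222), at 173, 166, 131, 128 and 151 CPM in myofibroblast-like cells (0.442) and at 73.1, 86.4, 56.1, 51.4 and 63.5 CPM in mesothelial-like cells (0.628). Both Het libraries were above the others in each of these, with no call. No gene of 11046 was called in mesothelial-like cells by edgeR (0%), where 798 had an unadjusted p under 0.05 and DESeq2 called 13 genes. Of those cells, 47 in Het2 against 1 to 22 in the other libraries belonged to a sub-cluster led by Krt14 and Ecel1. Apcdd1 in mesothelial-like cells was at 13.1, 10.5, 20.9, 17.8 and 13.5 CPM (log2 fold change 0.63, SE 0.30, edgeR adjusted p = 0.714), and Sfrp1 at 32.2, 31.7, 29.3, 19.7 and 29.4 CPM (-0.25, SE 0.23, adjusted p = 0.814). Smooth muscle-like cells had Nkd1 at 40.4, 35.8, 27.5, 56.1 and 42.2 CPM with overlapping groups, 0 of 3 tested members past the threshold and 0.0708% of 9886 genes past it.

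Sfrp1 fell in alveolar fibroblast-like cells and in unnamed mesenchymal cluster 3, while its summed mesenchymal level of 91.6, 71.5, 85.4, 67.6 and 78.9 CPM overlapped between groups. In alveolar fibroblast-like cells it fell, from 98.7 and 131 CPM in Het to 39.6, 29.1 and 19.96 CPM in KO. The log2 fold change was -1.88 (SE 0.28, edgeR adjusted p = 0.00277), on 40, 49, 50, 27 and 25 UMIs, and 1 of 6 tested members passed where 0.628% of 7956 genes did. With sex as a covariate it was -2.50 (adjusted p = 0.00824), and without Het2 it was -1.64 (adjusted p = 0.182). In mesenchymal cluster 3, led by Ms4a4d, Steap4 and Col17a1, Sfrp1 fell from 86.0 and 115 CPM to 47.8, 22.2 and 35.6 CPM (log2 fold change -1.44, SE 0.26, edgeR adjusted p = 0.0155), with 1 of 4 tested members past the threshold against 0.394% of 6599 genes. That call was lost with sex as a covariate (0.0785), by DESeq2 (0.0729), without Het2 (0.234) and without KO2 (0.0730).

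In adventitial fibroblast-like cells, the fibroblasts around vessels and airways, Sfrp1 was higher in each KO library (177, 174 and 179 CPM) than in each Het library (139 and 147 CPM), with no call (log2 fold change 0.34, SE 0.11, edgeR adjusted p = 0.429). None of the 4 tested members passed there, against 0.0902% of 9977 genes. Of the 100, 135, 198, 102 and 230 adventitial fibroblast-like cells, 6, 55, 77, 21 and 63 belonged to a sub-cluster led by Angptl1 and Fst. The part of that sub-cluster in the Sfrp1, Wnt2 and Wnt5a values of this type was not tested. Alveolar fibroblast-like cells were 7.17%, 5.18%, 14.8%, 14.3% and 12.6% of mesenchymal cells. Of their 8 naming markers 7 were lower in KO, at a summed 2478 and 2185 CPM in Het against 1430 to 1910 in KO, and adventitial markers in the same cells summed to 1950 and 2182 CPM in Het against 1090 to 1451 in KO, 9 of 10 lower. Pericyte markers in these cells summed to 212 and 192 CPM in Het against 249 to 339 in KO, 7 higher and 2 lower, with Trpc6 at 0. The part of these differences in the Sfrp1 result was not tested. A Sfrp1 UMI was found in 38.1%, 35.5%, 19.5%, 17.6% and 11.9% of alveolar fibroblast-like cells against at most 0.560% of immune cells, and in 19.5%, 16.7%, 13.9%, 4.71% and 6.54% after thinning to 3000 UMIs.

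**Figure D5:**
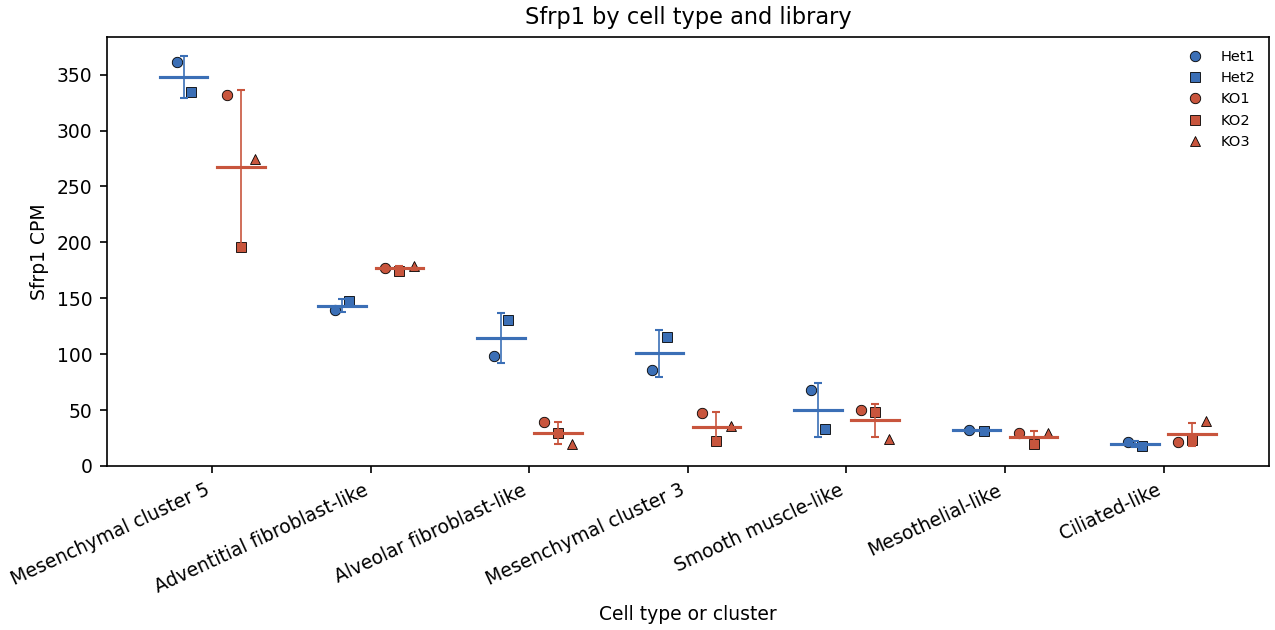
Each point is the Sfrp1 level in CPM (y axis) in 1 library for a type or cluster (x axis), with the group mean as a line and bars of 1 SD. KO libraries lie below Het libraries in alveolar fibroblast-like cells and mesenchymal cluster 3 and above them in adventitial fibroblast-like cells.

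The ligands did not pass the test in any lineage. Wnt2 in the mesenchymal sums was at 18.2, 15.1, 24.0, 26.2 and 26.3 CPM (log2 fold change 0.65, SE 0.12, edgeR adjusted p = 0.134). In its leading type, alveolar fibroblast-like cells, Wnt2 was at 143, 79.9, 132, 127 and 133 CPM, and the groups overlapped. Those cells gave 43.3%, 21.7%, 61.2%, 54.6% and 49.6% of the mesenchymal Wnt2 UMIs, beside the larger share of such cells given above for the KO libraries. In myofibroblast-like cells Wnt2 was at 14.5, 9.93, 23.4, 22.2 and 28.6 CPM on 9 to 35 UMIs (log2 fold change 1.03, SE 0.35, edgeR adjusted p = 0.18). In adventitial fibroblast-like cells the sign was the opposite, at 28.8, 20.3, 18.4, 19.5 and 9.99 CPM with groups that did not overlap and no call (log2 fold change -0.62, SE 0.32, edgeR adjusted p = 0.664).

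Wnt5a had fold changes of opposite sign in 2 fibroblast types, with no call in either, and the difference between the types was not tested. Myofibroblast-like cells had 361, 548, 346, 317 and 328 CPM (log2 fold change -0.45, SE 0.16, edgeR adjusted p = 0.189). Adventitial fibroblast-like cells had 22.4, 44.9, 62.7, 63.1 and 85.7 CPM (log2 fold change 1.07, SE 0.23, edgeR adjusted p = 0.138). Without Het2 the log2 fold change was 1.67, with Het1 alone in its group. Het1 held 6 cells of the Angptl1 sub-cluster given above, against 55 in Het2. In endothelial sums Wnt5a was at 2.22, 1.77, 7.24, 3.62 and 8.21 CPM (adjusted p = 0.0686) on 6 to 41 UMIs, with an adjusted p of 0.0121 without KO2, and of these UMIs lymphatic-like cells gave 1, 3, 13, 3 and 26. These cells were 2.88%, 2.05%, 12.8%, 6.97% and 11% of endothelial cells.

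The difference between lineages was fitted in one edgeR model with the library as a block. In a joint test of the 3 lineages, 5.43% of 15428 genes differed in their genotype effect. The differences between pairs of lineages were adjusted on their own, and no share of all genes is given for them. For Nkd1 the effect was lower by 1.76 on the log2 scale in endothelial than in mesenchymal cells (-1.76, SE 0.17, adjusted p = 6.47e-05) and higher in epithelial than in endothelial cells (2.07, SE 0.16, adjusted p = 2.20e-05). Between epithelial and mesenchymal cells Nkd1 differed by 0.31 (SE 0.13, adjusted p = 0.278). Wif1 also differed between endothelial and mesenchymal cells (3.66, SE 0.63, adjusted p = 0.00818), where its endothelial level was 0.494, 0.885, 0.869, 2.66 and 2.20 CPM on 2 to 11 UMIs. Apcdd1 did not pass between endothelial and mesenchymal cells (-0.84, SE 0.30, adjusted p = 0.255).

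Of the other 79 genes on a list of Wnt ligands, receptors, inhibitors, signal carriers and targets, 59 were tested in mesenchymal cells and none passed. They included 8 ligands, 16 receptors and 7 extracellular inhibitors. Of all 13765 genes tested there, 0.0726% passed. In endothelial cells 39 genes of the list were tested, 1 was higher and 1 lower, where 5.85% of 11616 genes passed. Myc, a growth regulator and common Wnt target, rose (13.6, 12.7, 33.0, 19.1 and 34.4 CPM; log2 fold change 1.15, SE 0.26, edgeR adjusted p = 0.0361). Sfrp2, a relative of Sfrp1, was lower (adjusted p = 0.0363), but its 6.18, 55.2, 1.45, 1.45 and 3.80 CPM rest on Het2. Sfrp1 had the same pattern there: 53 of its 55 endothelial UMIs in Het2 came from 18 arterial-like cells, and mesenchymal markers in the endothelial sums were at 208, 463, 284, 239 and 459.6 CPM. Sfrp1 in the endothelial sums was at 1.73, 16.2, 0.290, 0.724 and 2.20 CPM. The mesenchymal markers were not summed in arterial-like cells alone, and their part in the Sfrp1 and Sfrp2 values was not tested. In epithelial cells 53 genes of the list were tested and 1 was higher, where 7.05% of 14124 genes passed. This was Ror2, a receptor of Wnt5a, at a mean under 10 CPM and named after its value was seen (log2 fold change 0.99, SE 0.26, edgeR adjusted p = 0.0494). None of these counts is read as a result about the list.

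Within types, Dkk3, a secreted protein of the Dickkopf family, fell in myofibroblast-like cells (158, 186, 95.0, 92.4 and 108 CPM; log2 fold change -0.80, SE 0.16, edgeR adjusted p = 0.0077). In general capillary-like cells Myc rose (log2 fold change 1.39, SE 0.34, edgeR adjusted p = 0.019), as did Ctnnbip1, which keeps β-catenin from TCF factors (0.49, SE 0.13, adjusted p = 0.0441). Ccnd1, which drives entry into the cell cycle, rose in mesenchymal cluster 3 (2.06, SE 0.44, edgeR adjusted p = 0.0446). It lay there at 6.45, 9.62, 28.7, 29.0 and 42.7 CPM, on only 3, 6, 24, 17 and 36 UMIs. Alternatives were read only for the members, so none is given for these genes. No other gene of the list passed in the 10 types fitted. Past the threshold were 1 of 38 listed genes tested in myofibroblast-like cells, 2 of 27 in general capillary-like cells and 1 of 32 in cluster 3. The shares over all genes tested there were 1.61%, 4.37% and 0.394%.

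Over the 65 sums of a library and a type, genes with a mean of at least 10 CPM were ranked by Pearson's r of log2(CPM + 1) with each member. The sums share libraries, depth and type names, so r describes a shared pattern over types, and Egfem1 is also a marker that named the myofibroblast-like cells. Wif1 was most like Nrxn3 (0.81), Egfem1 (0.80) and Crh (0.79), Notum most like Egfem1 (0.91), Nrxn3 (0.90) and Zfp536 (0.89), and Lef1 most like Egfem1 (0.90), Smpx (0.89) and Crh (0.89). Among the members themselves, Lef1 and Notum had r = 0.87, Wif1 and Notum 0.82 and Wif1 and Lef1 0.78. Wnt5a was most like Tbx5 (0.90), Gm43050 (0.90) and Dkk3 (0.89), and Wnt2 most like Rbm46 (0.91), Adh1 (0.88) and B4galt1 (0.88). Sfrp1 was most like Lrrc17 (0.89), Loxl1 (0.89) and Matn2 (0.88), and Apcdd1 most like Fendrr (0.85), Foxf1 (0.83) and Tnfrsf1a (0.83). Nkd1 was most like Adk (0.82), Lamc1 (0.76) and Dnajb9 (0.72), Axin2 most like Rgs10 (0.75), Xdh (0.75) and Pvr (0.75), and Nkd2 most like Ing1 (0.71), Pros1 (0.69) and Cebpd (0.68).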

How the data were processed

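Single-cell RNA was captured from dissociated whole lungs, 1 library per embryo. The authors deposited raw UMI counts, 1 matrix of genes by barcodes per library. The submitters' processing notes name Cell Ranger 4.0.0 and mm10. The members and lists were chosen with earlier results of these data known. Barcodes under 500 detected genes or over 15% mitochondrial UMIs were dropped, and scored doublets were removed. Cells were clustered (scanpy 1.11.5, Leiden resolution 1, 2000 variable genes without the pathway list, 30 components, 15 neighbours) and clustered again within each lineage on 20 components. Clusters were named from marker lists, and that naming rule was refined with the clusters in view, so types rebuilt here can differ from the study's own. Sub-clusters led by another lineage's genes or of low depth were left out of the sums.

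Counts were summed per library and type. CPM are UMIs scaled to 1e6 per sum. Types with 30 or more cells in each of the 5 libraries were fitted with edgeR 4.0.16 (quasi-likelihood test, TMM scaling, filterByExpr, two-sided, Benjamini-Hochberg adjusted p under 0.05), tested first on simulated data. Alternatives used DESeq2 1.42.0, other scalings, filters and clusterings, sex, the replicate number and left-out libraries. Fold changes of members are given only from 5 CPM in the higher group upwards. Exceptions are lineage differences past the threshold and Apcdd1 in immune cells, at a mean of 4.02 CPM in Het. In types, fold changes are given mainly where called or where groups did not overlap. Of other pathway genes, those past the threshold are named, at most 3 per lineage with at least 10 CPM, and for likeness the 3 nearest genes. Promoter letters come from RefSeq and coordinates from GENCODE M21.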

Additional observations from a re-analysis of the deposited data

Results flagged for a closer look

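The change of Nkd1 between Het and KO differed between lineages in the model with the library as a block: the difference was -1.76 between endothelial and mesenchymal cells and 2.07 between epithelial and endothelial cells (log2, edgeR adjusted p = 6.47e-05 and 2.20e-05), with adjusted p under 0.05 in all 6 alternatives of each. The change of Wif1 differed by 3.66 between endothelial and mesenchymal cells (edgeR adjusted p = 0.00818; 0.0101 to 0.0656 over 6 alternatives, above 0.05 without Het1 or Het2), with endothelial levels under 2.7 CPM. The change of Axin2 differed by 1.48 between epithelial and endothelial cells (edgeR adjusted p = 0.0445; 0.0534 to 0.206 with 1 library left out), and that of Wnt5a by 1.84 between endothelial and mesenchymal cells (edgeR adjusted p = 0.0477; 0.00548 to 0.399 over 6 alternatives). In the joint test of the 3 lineages, Axin2 did not pass (edgeR adjusted p = 0.0689), and Wnt5a had 0.0451. Outside the 3 lineages, Apcdd1 in immune cells had a log2 fold change of -1.66 (edgeR adjusted p = 0.00727) on 98, 127, 12, 25 and 47 UMIs. Red-cell barcodes carried Apcdd1 at 0.598, 0.459, 0.181, 0.247 and 0.612 CPM.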

How the results depend on the processing

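The 10 genes called in mesenchymal sums became 135 by DESeq2, 299 without the low-count filter, 6 when cells needed 1000 genes and under 10% mitochondrial UMIs, 84 with mixed cells left out, 0 with sex as a covariate (733 at an unadjusted p under 0.05 by edgeR), 6 with the replicate block, 4 without cluster 9, and 0 to 117 with 1 library left out. The 680 in endothelial sums became 1572 without the filter, 208 with sex, 263 with the replicate block, 278 without aerocyte-like cells and 149 to 1012 with 1 library left out. The 996 in epithelial sums became 2281 without the filter, 1609 at Leiden resolution 0.5, 127 with mixed cells left out and 244 to 933 with 1 library left out. The 6 calls of a member in a type became 3 by DESeq2, which gave no adjusted p for Nkd1 in general capillary-like and endothelial cycling cells, and 4 to 7 with 1 library left out. The 837 genes of the lineage model became 340 to 794. Without the filter, Notum, Nkd2 and Wnt2 in mesenchymal and Axin2, Wnt5a and Sfrp1 in endothelial sums also passed, and at resolution 0.5 Wnt2 and Apcdd1 in epithelial sums did. Endothelial Sfrp1, with 55 of its UMIs in Het2, also passed without Het1 (-3.72, adjusted p = 0.0237). The causes were not tested. Leaving out 1 Het library leaves 1, which is assumed to vary like the others. With sex as a covariate, KO3 alone is compared with the Het libraries.

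Signs turned for values near 0. Sfrp1 in mesenchymal sums was 0.17 without Het1, 0.05 without KO2 and -0.226 without Het2, and in epithelial sums 0.0279 with library size alone, 0.13 with doublets kept, 0.14 at resolution 0.5, 0.12 with mixed cells left out, 0.0213 with sex, 0.25 without Het1, 0.03 without KO1 and -0.233 without Het2; Nkd1 in epithelial sums was 0.11 with sex. The epithelial minus mesenchymal difference of Sfrp1 was -0.14 without KO2 and -0.03 without KO3. Samples with the same replicate number did not deviate together (r from -0.21 to 0.17 over the 3 lineages and 2 numbers), and the labels give no pairing. Replicate number 3 holds KO3 alone, so with the replicate block KO3 does not inform the difference between groups. In that fit by edgeR, Wif1 in mesenchymal sums (-2.09, adjusted p = 0.0525) and Apcdd1 in endothelial sums (-1.11, 0.0626) lost their calls. Capillary cluster 2 alone gave no fitted value for Nkd1 or Apcdd1.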
